A study of Mus musculus with 6 samples.

Results

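Synthesis of cholesterol and of fatty acids was examined in CD8 T cells sorted from treated tumours, through 28 genes chosen for their place in these pathways: 18 genes of sterol enzymes, 6 of fatty acid enzymes and 4 of sterol regulation and transport. Each gene was represented by the brightest of its probe sets by the mean over all 6 arrays. Of the 28 genes, 27 had a probe set assigned to that gene alone and all 27 passed the filter on low signal, out of 12558 genes tested in all. Acat2, the cytosolic thiolase gene that opens the sterol branch, had no such probe set, so its expression was not analysed. The genes were named by function, but the choice was made with earlier results of these data known.

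The fractions came from 1 kind of animal: male C57BL/6 mice whose GFP reports Eomes, the T-box factor of CD8 effector and memory cells, and which bore transplanted MCA-205 fibrosarcomas. RNA of GFP-positive CD8 T cells was hybridised to 3 arrays (Eomes+) and RNA of GFP-negative CD8 T cells to 3 others (Eomes-), and each fraction is numbered as replicates 1, 2 and 3. Both fractions share the reporter and the treatment. Anti-OX40, which engages a costimulatory receptor, was given at 250 ug on days 12 and 16, anti-CTLA-4, which blocks an inhibitory receptor, at 200 ug on days 12, 14 and 16, and the harvest was on day 19. The design text speaks of 3 separate experiments, but no label ties an array to an experiment, an animal or a pool, and no ages are given, so each p-value reflects only how far these samples spread, which may be partly technical. In RNA from sorted populations, fewer cells of a type and less RNA per cell cannot be told apart.

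Animal cells build cholesterol from acetyl-CoA through mevalonate, squalene and lanosterol, and the same acetyl-CoA feeds fatty acid synthesis. Both branches are governed by the SREBP transcription factors, which are held in the endoplasmic reticulum by INSIG proteins when sterols are plentiful and released to switch on their target genes when sterols run low. T cells turn the programme on when they are activated and build new membrane, and cholesterol content of the membrane is known to affect receptor signalling in CD8 T cells.

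The sort and the purity of the arrays were checked first. Eomes was at 10.38, 9.86 and 8.38 log2 on the Eomes+ arrays of replicates 1, 2 and 3, against 6.85, 6.89 and 5.42 log2 on the Eomes- arrays, so the fractions did not overlap. The mean of 8 T cell marker genes, among them Cd3e, Cd3d and Cd8a, was 12.39, 12.15 and 11.17 log2 on Eomes+ arrays, against 12.56, 12.58 and 11.39 log2 on Eomes- arrays. Signal of genes typical of other cells differed by replicate more than by fraction: 12 macrophage and monocyte genes averaged 8.71, 10.20 and 11.03 log2 on Eomes+ arrays, against 8.26, 9.35 and 10.92 log2 on Eomes- arrays. For 10 tumour and fibroblast genes the means were 9.55, 11.37 and 12.09 log2 on Eomes+ arrays, against 9.45, 10.57 and 12.13 log2 on Eomes- arrays. A higher mean in Eomes+ cells was seen for 11 of 12 macrophage genes, 9 of 10 tumour genes (Thy1 among the 10 is also a T cell gene) and 1 of 8 T cell genes, beside 47.4% of all genes. The 3 B cell genes averaged between 6.06 and 6.40 log2 on Eomes+ arrays and between 5.88 and 6.15 log2 on Eomes- arrays, close to the filter level of about 5.7 log2, with Ms4a1 below it. Of the dendritic cell markers, Xcr1 and Flt3 lay below the filter. Zbtb46 was at 6.94, 6.96 and 6.86 log2 on Eomes+ arrays, against 6.82, 6.37 and 6.68 log2 on Eomes- arrays, with no overlap by a narrow margin. H2-Ab1, which macrophages also express, was at 10.70, 11.90 and 12.78 log2 on Eomes+ arrays, against 10.24, 11.12 and 12.92 log2 on Eomes- arrays. The CD4 lineage markers Cd4, Foxp3 and Cd40lg averaged 6.43 to 6.62 log2 on Eomes+ arrays and 6.95 to 7.62 log2 on Eomes- arrays. Among them only Cd40lg had fractions that did not overlap (-1.70 log2), and it lay below the filter level on every Eomes+ array. Cd40lg passed the filter through the Eomes- arrays alone, so its lack of overlap follows from the filter. The means of the CD4 lineage markers include it. Cd4 (-0.24 log2) and Foxp3 (-0.34 log2) were lower in Eomes+ at each replicate number, with overlapping groups. The Gapdh 3' to 5' difference, a sign of RNA quality, was 1.88, 1.77 and 1.55 log2 on Eomes+ arrays, against 1.54, 1.07 and 1.11 log2 on Eomes- arrays, with no overlap. The same difference for Actb was 0.08, 0.17 and 0.13 log2 on Eomes+ arrays, against -0.0022, 0.046 and 0.11 log2 on Eomes- arrays, and there the groups overlapped. The part of RNA quality in the differences below was not tested, and that of the macrophage and tumour markers was examined only by a fit with their mean as a covariate.

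No synthesis gene passed the test between the fractions, and mean differences lay on both sides of 0. Of the 27 genes, 11 were higher and 16 lower by mean in the Eomes+ fraction, where 47.4% of all genes were higher, and the median log2 difference (Eomes+ minus Eomes-) was -0.02, the same to 2 decimals as the median of all genes tested (-0.02). The members' median was -0.24 log2 without Eomes+ replicate 3 and 0.25 log2 without Eomes- replicate 3. No member differed by as much as 2-fold, and the differences ran from -0.78 log2 for Sc5d to 0.36 log2 for Acly. In limma's fit across all genes, 0 members and 0% of all genes passed at a Benjamini-Hochberg adjusted p under 0.05 (adjusted p = 1.00 for each of the 27), and at an unadjusted p under 0.05 there was 1 member (Acly), against 3.25% of all genes (408 of 12558). By direction that was 1 member higher in Eomes+ cells, beside 1.21% of all genes, and 0 lower, beside 2.04%. The same fit did not pass Eomes itself, the gene the cells were sorted on, at 3.15 log2 (SE 0.64, adjusted p = 1.00), so a count of 0 does not show that the fractions were alike. For 17 of the 27 genes the 95% interval of the difference lay within 1 log2 of 0, beside 6862 of all 12558 genes. That leaves 10 members whose interval still includes a 2-fold change. The fractions were separate for 1 member on the higher side (Acly) and for 1 on the lower side (Sc5d), beside 3.05% and 4.67% of all genes (7.72% in either direction), which is near that background.

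**Figure D1:**
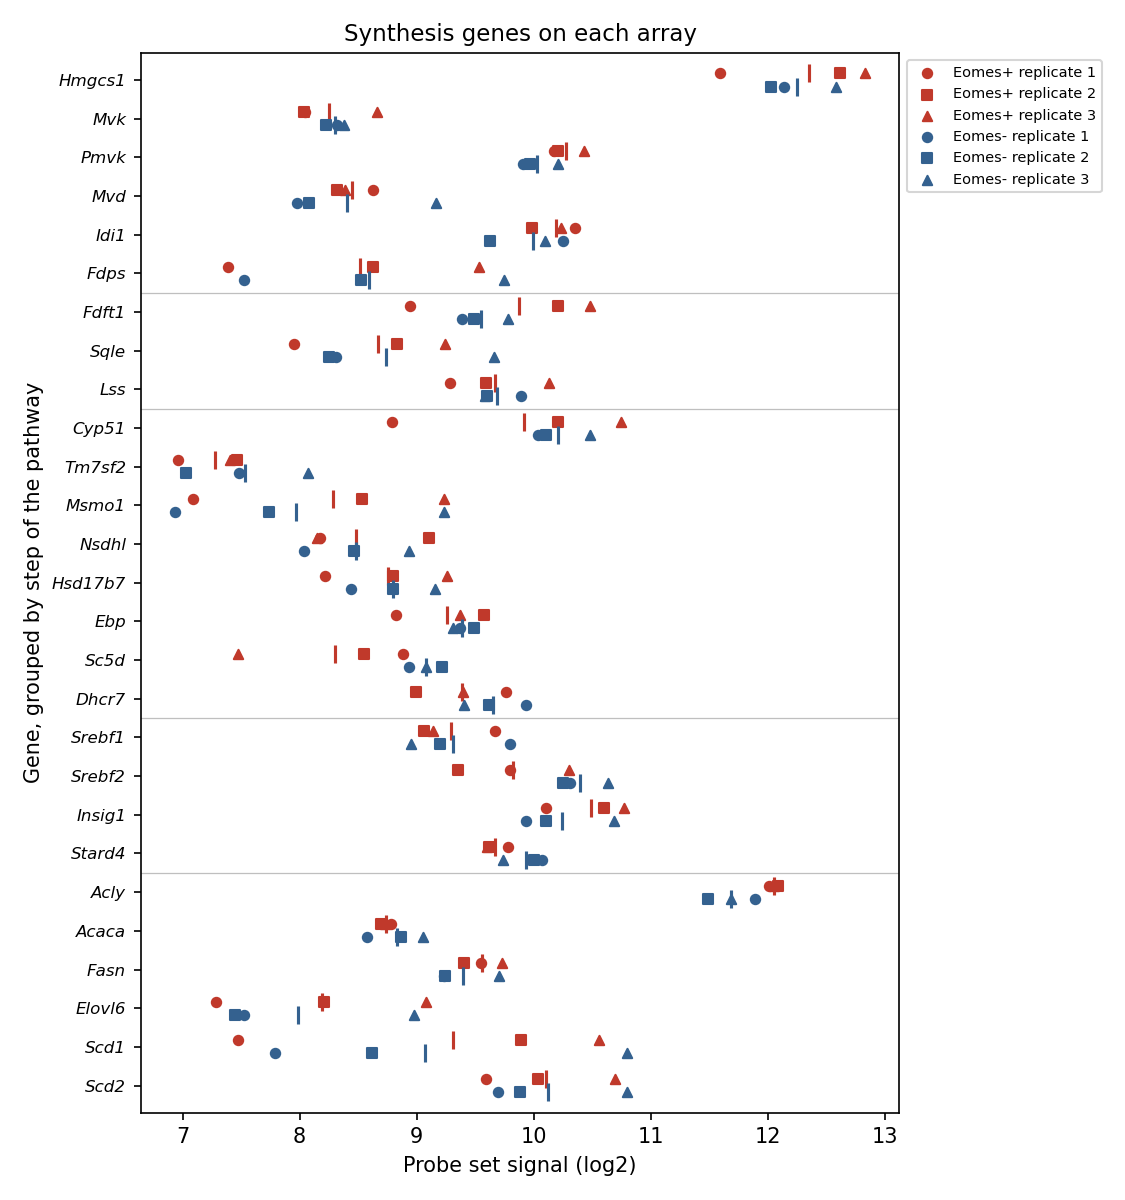
Signal of the 27 synthesis genes on each array (log2, horizontal axis), grouped by step of the pathway from the mevalonate steps at the top to fatty acid synthesis at the bottom. Red symbols are Eomes+ arrays, drawn above blue Eomes- arrays, the marker shape gives the replicate number and the vertical bar the mean of 3 arrays; the colours are separate for Acly and Sc5d alone, while Scd1, Fdps and Msmo1 spread over more than 2 log2 within each colour.

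The regulators of the programme held the second largest difference on the list. Srebf2, which encodes SREBP2, the main activator of sterol synthesis genes, was at 9.80, 9.36 and 10.30 log2 on Eomes+ arrays, against 10.31, 10.25 and 10.63 log2 on Eomes- arrays. Eomes+ was lower at each replicate number, with differences of -0.51, -0.89 and -0.33 log2, and the groups overlapped by a narrow margin, at the highest Eomes+ and the lowest Eomes- array. The mean difference was -0.58 log2, 1.49-fold lower in Eomes+ cells (SE 0.28, 95% interval -1.24 to 0.09; limma unadjusted p = 0.080, adjusted p = 1.00). A second, dimmer Srebf2 probe set differed in the same direction, at 8.49, 8.41 and 7.66 log2 on Eomes+ arrays, against 9.03, 8.91 and 9.20 log2 on Eomes- arrays. On that probe set the groups did not overlap, and the difference was -0.86 log2. Over the mean of both probe sets Srebf2 differed by -0.72 log2 (unadjusted p = 0.00586, adjusted p = 1.00), and without Eomes+ replicate 2 the brighter one differed by -0.34 log2.

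Srebf1, which encodes SREBP1, the activator tied more to fatty acid synthesis, showed no such separation. It was at 9.67, 9.06 and 9.14 log2 on Eomes+ arrays, against 9.79, 9.20 and 8.95 log2 on Eomes- arrays, a difference of -0.02 log2 with a 95% interval of -0.75 to 0.71. Insig1, the sterol-sensing retention protein and itself an SREBP target, was at 10.10, 10.60 and 10.77 log2 on Eomes+ arrays, against 9.93, 10.11 and 10.68 log2 on Eomes- arrays. Insig1 was higher in Eomes+ at each replicate number, by 0.17, 0.49 and 0.09 log2, and its groups overlapped, with a mean difference of 0.25 log2 (95% interval -0.42 to 0.91). Stard4, a carrier that moves cholesterol between membranes, was at 9.78, 9.62 and 9.60 log2 on Eomes+ arrays, against 10.07, 10.00 and 9.74 log2 on Eomes- arrays. It was lower in Eomes+ at each number, with a mean difference of -0.27 log2 (95% interval -0.72 to 0.17; unadjusted p = 0.189). The other 2 Stard4 probe sets also had a lower mean in Eomes+ cells (-0.03 and -0.38 log2) but not at every number. In all, on their brightest probe sets, 4 of 27 members were lower in Eomes+ at all 3 replicate numbers (Sc5d, Dhcr7, Srebf2 and Stard4), beside 17.3% of all genes. Another 6 were higher at all 3 (Pmvk, Idi1, Msmo1, Insig1, Acly and Fasn), beside 14% of all genes. Msmo1 was higher at replicate 3 by only 0.00565 log2.

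The promoters of these genes are shown because SREBPs act on them together with the CCAAT-binding factor NF-Y. RefSeq promoter windows of 300 bases (GRCm38.p6, 250 bases before to 50 after the start) were listed for 22 of the 28 genes, 27 windows in all. The windows of Srebf2, of the pathway gene with a sterol response element core, and of both genes with separate fractions are given below 5' to 3', with capitals marking the NF-Y box (CCAAT on either strand) and the sterol response element core (TCACNCCAC on either strand).
Srebf2: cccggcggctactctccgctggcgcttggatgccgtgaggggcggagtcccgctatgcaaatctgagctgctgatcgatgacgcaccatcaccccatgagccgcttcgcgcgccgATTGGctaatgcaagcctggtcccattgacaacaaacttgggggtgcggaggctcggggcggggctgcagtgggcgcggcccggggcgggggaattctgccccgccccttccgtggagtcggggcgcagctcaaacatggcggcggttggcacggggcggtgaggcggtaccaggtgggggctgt
Hmgcs1: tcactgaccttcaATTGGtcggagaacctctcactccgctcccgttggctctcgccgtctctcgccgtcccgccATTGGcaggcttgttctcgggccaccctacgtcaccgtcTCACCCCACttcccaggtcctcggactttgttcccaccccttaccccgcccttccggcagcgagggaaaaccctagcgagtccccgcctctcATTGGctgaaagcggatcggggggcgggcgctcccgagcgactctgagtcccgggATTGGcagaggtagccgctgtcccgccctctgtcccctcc
Sc5d: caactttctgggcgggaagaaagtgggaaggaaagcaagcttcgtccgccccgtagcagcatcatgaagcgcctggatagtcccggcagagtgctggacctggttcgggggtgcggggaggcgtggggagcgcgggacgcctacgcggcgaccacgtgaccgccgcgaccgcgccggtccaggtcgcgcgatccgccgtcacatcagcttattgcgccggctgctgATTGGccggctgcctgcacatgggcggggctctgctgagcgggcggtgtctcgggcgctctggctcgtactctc
Acly: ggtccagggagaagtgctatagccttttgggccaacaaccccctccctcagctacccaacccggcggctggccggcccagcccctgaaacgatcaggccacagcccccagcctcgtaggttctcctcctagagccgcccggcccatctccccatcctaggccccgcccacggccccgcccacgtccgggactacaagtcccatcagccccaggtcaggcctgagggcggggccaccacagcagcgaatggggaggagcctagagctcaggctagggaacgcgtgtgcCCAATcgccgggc
The Srebf2 window is chr15:82147019-82147318 on the plus strand, the Hmgcs1 window chr13:119690101-119690400 on the plus strand, the Sc5d window chr9:42264251-42264550 on the minus strand and the Acly window chr11:100527951-100528250 on the minus strand. The sterol response element core was found in 1 of the 27 windows, that of Hmgcs1, beginning at base -137 from the start, and in 1.24% of all 32851 windows. An NF-Y box was found in 20 of the 27 windows (74.1%) and in 37.4% of all windows, and Hmgcs1 held 4 of them while Srebf2, Sc5d and Acly held 1 each. An Sp1 box (GGGCGG on either strand) was found in 20 of the 27 windows and in 35.7% of all windows. No capital stretches of the 2 marked motifs overlapped in these windows. A match of letters is a description of the window and not of a bound site. Only the exact letters were searched, so near matches to the sterol response element core were neither marked nor counted.

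The mevalonate steps were close to even between the fractions. Of 6 genes tested, 4 had a higher and 2 a lower mean in Eomes+ cells, with a median of 0.07 log2. Hmgcs1, the cytosolic HMG-CoA synthase gene and the brightest member, was at 11.59, 12.62 and 12.83 log2 on Eomes+ arrays, against 12.14, 12.02 and 12.58 log2 on Eomes- arrays. Eomes+ was lower at replicate 1 and higher at replicates 2 and 3, and the mean difference was 0.10 log2 (95% interval -0.72 to 0.91). Of its 5 probe sets above the filter, 4 had a higher and 1 a lower mean in Eomes+ cells.

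Pmvk, the phosphomevalonate kinase gene, had the most even difference on the list. It was at 10.18, 10.21 and 10.43 log2 on Eomes+ arrays, against 9.91, 9.97 and 10.21 log2 on Eomes- arrays, which is 0.26, 0.24 and 0.22 log2 higher at the same number. The groups nevertheless met, at Eomes+ replicate 1 and Eomes- replicate 3, and the mean difference was 0.24 log2 (SE 0.18, 95% interval -0.18 to 0.67; limma unadjusted p = 0.216). Idi1, which interconverts the isoprenoid building blocks, was at 10.36, 9.99 and 10.23 log2 on Eomes+ arrays, against 10.25, 9.63 and 10.10 log2 on Eomes- arrays. Both Idi1 probe sets were higher in Eomes+ at all 3 numbers, and the brighter one differed by 0.20 log2 (95% interval -0.35 to 0.75).

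On their brightest probe sets the other mevalonate genes had no steady direction. Mvk, mevalonate kinase, differed by -0.06 log2 (95% interval -0.69 to 0.58). Mvd, the decarboxylase, differed by 0.04 log2 (95% interval -0.85 to 0.92), with Eomes+ higher at replicates 1 and 2 and lower at replicate 3. A dimmer Mvd probe set above the filter was higher in Eomes+ at each number (mean difference 0.20 log2). Fdps, which makes farnesyl diphosphate, was at 7.38, 8.63 and 9.53 log2 on Eomes+ arrays, against 7.52, 8.52 and 9.74 log2 on Eomes- arrays. Its spread within either fraction exceeded 2 log2, while its mean difference was -0.08 log2 (95% interval -1.83 to 1.66).

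The 3 genes that make squalene and close it to lanosterol differed by 0.32, -0.07 and -0.02 log2. Fdft1, squalene synthase, was at 8.94, 10.21 and 10.48 log2 on Eomes+ arrays, against 9.38, 9.49 and 9.78 log2 on Eomes- arrays. Eomes+ was lower at replicate 1 and higher at replicates 2 and 3, and the other Fdft1 probe set above the filter differed the opposite way, by -0.21 log2. Sqle, the rate-limiting squalene epoxidase, was at 7.95, 8.83 and 9.24 log2 on Eomes+ arrays, against 8.31, 8.25 and 9.66 log2 on Eomes- arrays, and Eomes+ was the higher at replicate 2 alone. Lss, lanosterol synthase, was at 9.29, 9.59 and 10.13 log2 on Eomes+ arrays, against 9.89, 9.60 and 9.58 log2 on Eomes- arrays, and the Eomes- values lay inside the Eomes+ range.

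Of the 8 genes for the steps from lanosterol to cholesterol, 7 were lower by mean in the Eomes+ fraction, with a median of -0.19 log2, and 0 reached an unadjusted p under 0.05. With array weights Cyp51, Tm7sf2, Nsdhl, Hsd17b7 and Ebp turned to a higher Eomes+ mean. Sc5d, the sterol C5-desaturase, had the largest difference of all members. It was at 8.88, 8.55 and 7.47 log2 on Eomes+ arrays, against 8.94, 9.21 and 9.08 log2 on Eomes- arrays. Every Eomes+ array lay below every Eomes- array, although the difference at replicate 1 was as small as -0.06 log2. The mean difference was -0.78 log2, 1.71-fold lower in Eomes+ cells (SE 0.39, 95% interval -1.72 to 0.16; limma unadjusted p = 0.091, adjusted p = 1.00). It rested largely on Eomes+ replicate 3, without which it was -0.36 log2, and both other Sc5d probe sets lay below the filter.

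Dhcr7, which carries out the last reduction to cholesterol, was at 9.76, 8.99 and 9.39 log2 on Eomes+ arrays, against 9.94, 9.62 and 9.40 log2 on Eomes- arrays. It was lower in Eomes+ at each number, with differences of -0.17, -0.63 and -0.01 log2, with a 95% interval of -0.92 to 0.39 for the mean difference of -0.27 log2, which was -0.07 log2 without Eomes+ replicate 2. Cyp51, the lanosterol demethylase, was at 8.79, 10.21 and 10.74 log2 on Eomes+ arrays, against 10.03, 10.10 and 10.48 log2 on Eomes- arrays. Its lower Eomes+ mean (-0.29 log2) came from replicate 1, where the difference was -1.25 log2, while at replicates 2 and 3 Eomes+ was the higher. Msmo1, the C4-methyl oxidase, was at 7.09, 8.54 and 9.24 log2 on Eomes+ arrays, against 6.94, 7.74 and 9.23 log2 on Eomes- arrays, with a difference of 0.32 log2 far inside its 95% interval of -1.48 to 2.12. The other Msmo1 probe set above the filter differed the opposite way, by -0.27 log2, and over the mean of probe sets Msmo1 differed by 0.02 log2.

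The remaining post-lanosterol genes differed by at most 0.25 log2 in size. Tm7sf2, a sterol C14-reductase, differed by -0.25 log2 (95% interval -1.07 to 0.57), Ebp, the sterol isomerase, by -0.13 log2 (95% interval -0.74 to 0.47) and Hsd17b7, a 3-ketosteroid reductase, by -0.04 log2 (95% interval -0.87 to 0.79). Both other Hsd17b7 probe sets above the filter had larger differences in the same direction, -0.77 and -0.44 log2. Nsdhl, the C4-decarboxylase, was at 8.18, 9.11 and 8.15 log2 on Eomes+ arrays, against 8.03, 8.47 and 8.94 log2 on Eomes- arrays, and its means were equal to 2 decimals.

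**Figure D2:**
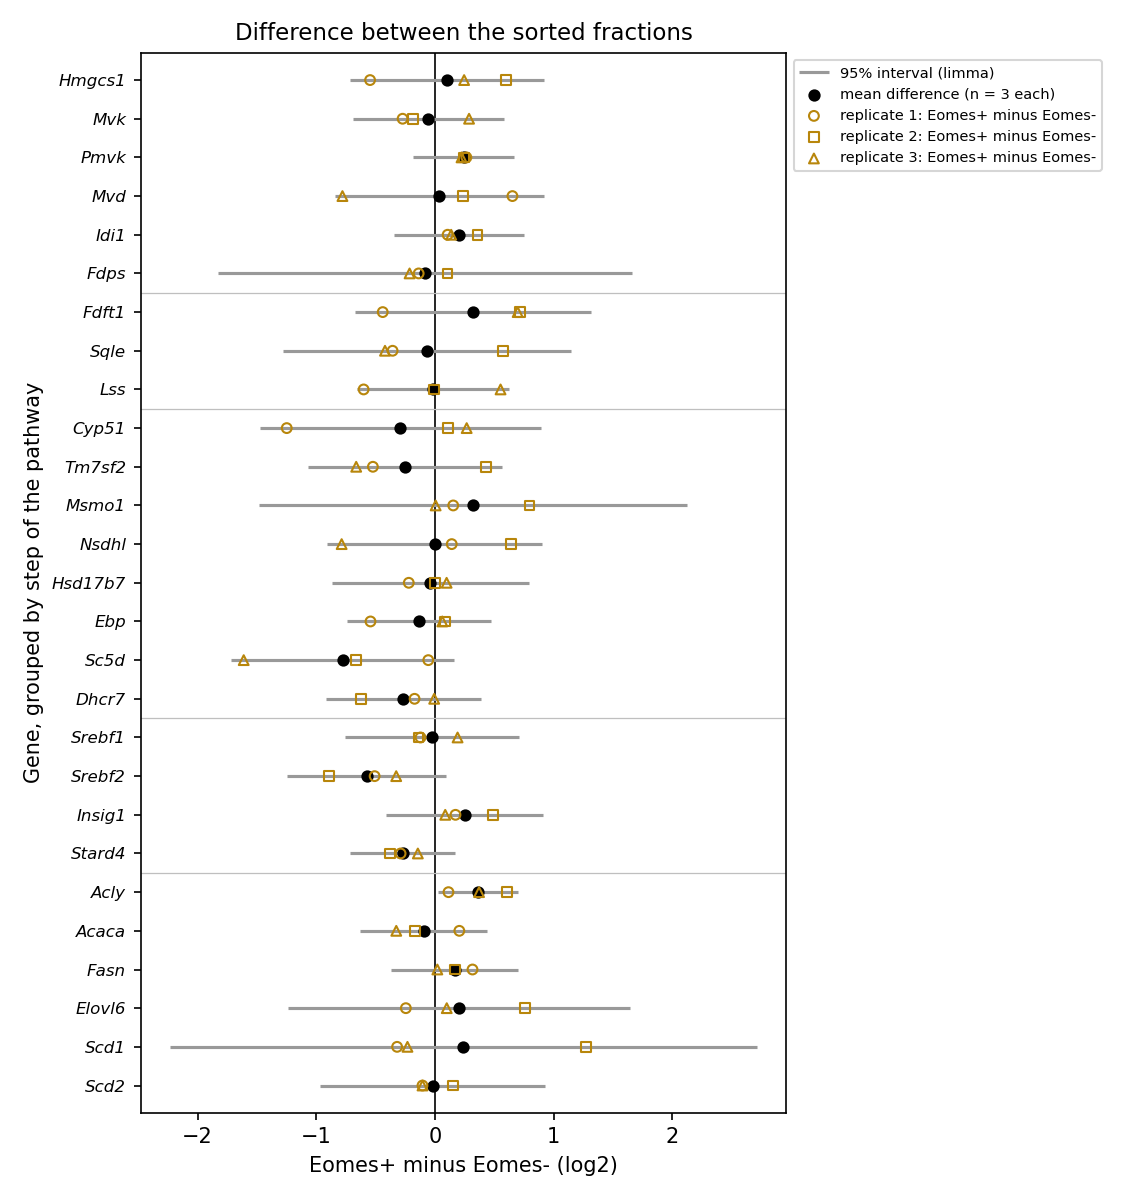
Log2 difference, Eomes+ minus Eomes-, of each synthesis gene (horizontal axis): black points are mean differences over 3 arrays a fraction, grey lines limma's 95% intervals, and open symbols the differences between arrays of the same replicate number. The interval of Acly alone lies clear of 0, those of Srebf2 and Sc5d reach just past it, and the 3 open symbols of Pmvk coincide near 0.24 log2.

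Fatty acid synthesis genes had a higher mean in Eomes+ cells in 4 of 6 cases, with a median of 0.19 log2. Acly, ATP-citrate lyase, which supplies acetyl-CoA to both branches, was at 12.01, 12.09 and 12.05 log2 on Eomes+ arrays, against 11.89, 11.48 and 11.68 log2 on Eomes- arrays. All 3 Eomes+ arrays lay above all 3 Eomes- arrays, and they differed among themselves by no more than 0.08 log2. The mean difference was 0.36 log2, 1.29-fold higher in Eomes+ cells (SE 0.14, 95% interval 0.03 to 0.70; limma unadjusted p = 0.037, adjusted p = 1.00), and without the intensity trend its unadjusted p was 0.0986. The design of the brightest Acly probe set allows cross-hybridisation (its name ends in _x_at), and both other Acly probe sets above the filter differed the opposite way, by -0.10 and -0.02 log2, with overlapping groups. Over the mean of its probe sets Acly differed by 0.08 log2 (unadjusted p = 0.547).

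Acaca, the acetyl-CoA carboxylase that commits carbon to fatty acids, was at 8.78, 8.70 and 8.73 log2 on Eomes+ arrays, against 8.57, 8.86 and 9.06 log2 on Eomes- arrays. The Eomes+ values lay within the Eomes- range, and the difference was -0.10 log2 (95% interval -0.63 to 0.44). Fasn, fatty acid synthase, was at 9.54, 9.41 and 9.72 log2 on Eomes+ arrays, against 9.23, 9.24 and 9.70 log2 on Eomes- arrays. It was higher in Eomes+ at each number, by 0.32, 0.17 and 0.02 log2, with a mean difference of 0.17 log2 (95% interval -0.37 to 0.70).

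Elongation and desaturation genes varied much more between replicates than between fractions. Scd1, a stearoyl-CoA desaturase prominent in liver and fat, was at 7.47, 9.89 and 10.56 log2 on Eomes+ arrays, against 7.79, 8.62 and 10.79 log2 on Eomes- arrays. Scd2, a related desaturase prominent in brain, was at 9.59, 10.04 and 10.69 log2 on Eomes+ arrays, against 9.69, 9.88 and 10.80 log2 on Eomes- arrays. In both genes replicate 1 was the lowest and replicate 3 the highest in either fraction, and the mean differences were 0.24 log2 for Scd1 (95% interval -2.23 to 2.71) and -0.02 log2 for Scd2 (95% interval -0.97 to 0.93). Elovl6, which elongates palmitate, was at 7.28, 8.21 and 9.08 log2 on Eomes+ arrays, against 7.53, 7.45 and 8.98 log2 on Eomes- arrays, a difference of 0.20 log2 (95% interval -1.24 to 1.65).

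The spread within a fraction was larger than the difference between fractions for the members as for most genes. For 27 of 27 members the larger of the 2 within-fraction ranges exceeded the difference between the fractions, as it did for 96.3% of all genes, and for 22 of 27 the smaller range did so too, beside 80% of all genes. These shares are near the background. Replicate 3 lay more than 1 log2 above replicate 1 in both fractions for 6 of 27 members (Scd1, Msmo1, Fdps, Elovl6, Sqle and Scd2), beside 10.6% of all genes, and lay above it at all in both fractions for 16 of 27, beside 34.5% of all genes. The difference between replicates 3 and 1 had a median over the members of 0.55 log2 in Eomes+ cells and 0.44 log2 in Eomes- cells, while the medians over all genes were -0.05 log2 in each. It was 3.09 log2 in Eomes+ and 3.00 log2 in Eomes- cells for Scd1, 2.15 and 2.29 log2 for Msmo1, and 2.15 and 2.22 log2 for Fdps. The arrays of replicate 3 also had the highest macrophage and tumour marker means of their fraction: the same difference had a median of 2.43 log2 in Eomes+ and 2.71 log2 in Eomes- over the macrophage genes and 2.59 and 2.89 log2 over the tumour genes, and of -1.18 and -1.12 log2 over the T cell genes. Proliferation genes, among them Mki67 and Top2a, differed between these replicates by a median of 0.14 log2 in Eomes+ cells and 0.08 log2 in Eomes- cells. The part of other cells' RNA in the synthesis genes' spread was not tested.

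Other members lay apart from that pattern. Srebf1 was lower on replicate 3 than on replicate 1, with differences of -0.53 log2 in Eomes+ cells and -0.85 log2 in Eomes- cells, as were Dhcr7 (-0.37 and -0.54 log2), Stard4 (-0.18 and -0.33 log2) and Idi1 (-0.12 and -0.15 log2). For Acly the same difference was 0.05 log2 in Eomes+ and -0.21 log2 in Eomes- cells. With the mean of 21 macrophage and tumour markers of each array as a covariate, the difference between fractions was -0.63 log2 for Srebf2 (unadjusted p = 0.032, adjusted p = 0.497), 0.37 log2 for Acly (unadjusted p = 0.018, adjusted p = 0.439) and -0.69 log2 for Sc5d (unadjusted p = 0.071, adjusted p = 0.573). The covariate was chosen after seeing the data.

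**Figure D3:**
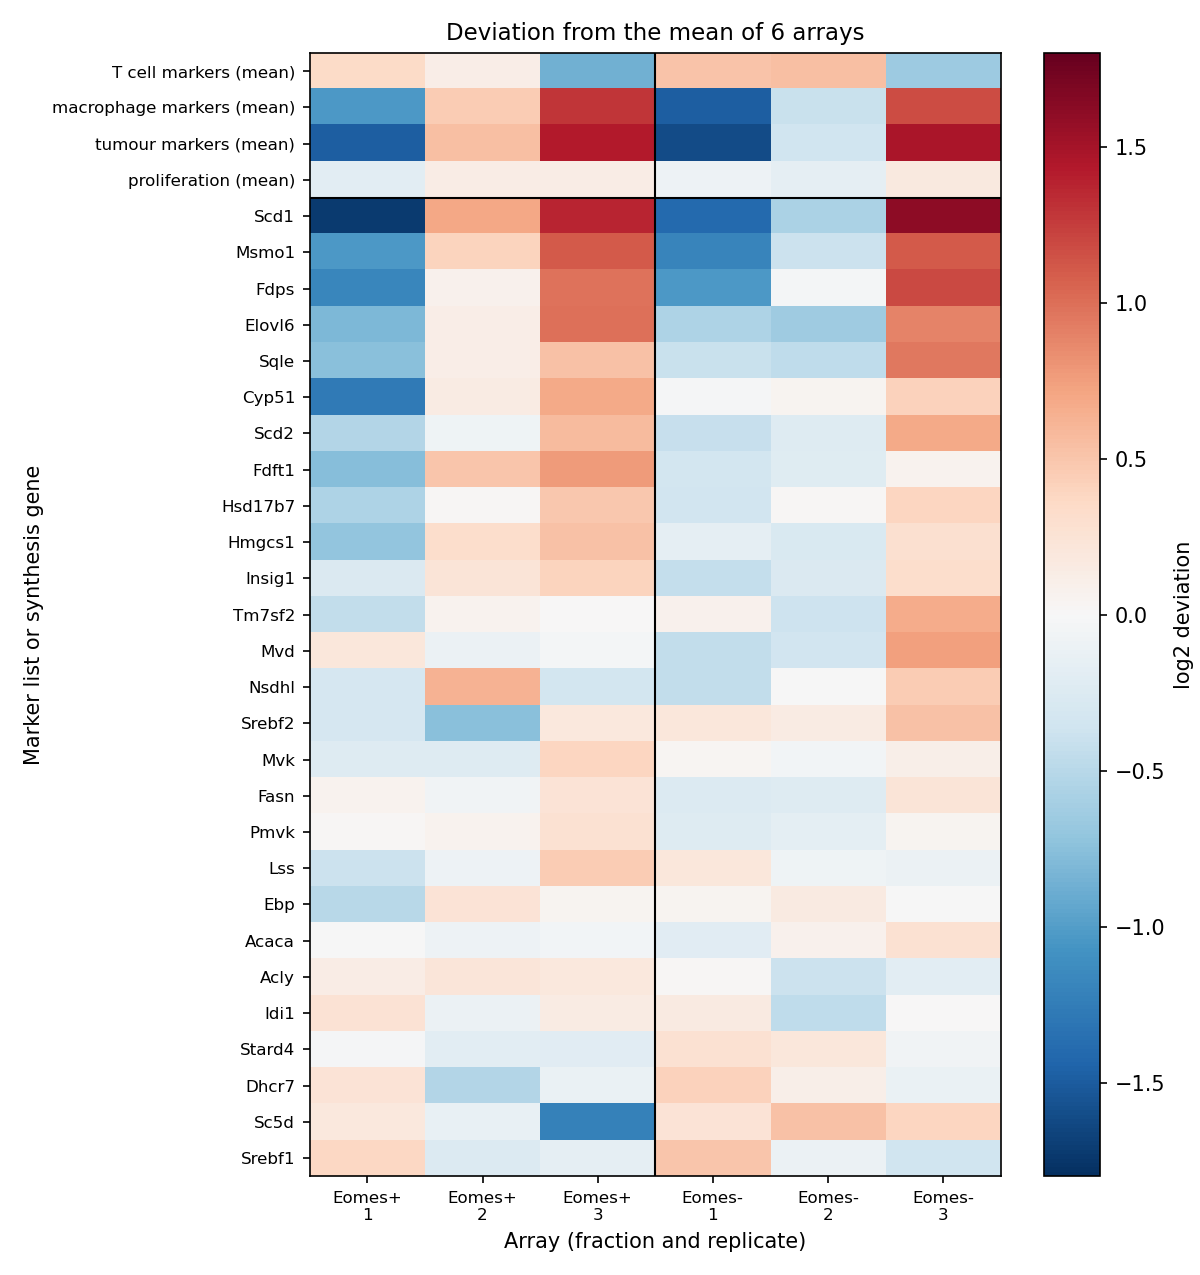
Deviation of each gene's signal from its own mean over the 6 arrays (colour, log2) for the 27 synthesis genes, ordered by the difference between replicates 3 and 1, below the means of 4 gene lists (the tumour list without Thy1, which T cells express). Columns are the Eomes+ arrays and then the Eomes- arrays; the upper rows from Scd1 to Sqle are blue on replicate 1 and red on replicate 3 in both fractions, like the macrophage and tumour marker means, and the T cell marker mean is the reverse.

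Lists of other lipid genes, outside the 28, included differences larger than those of the members. None passed the test across all genes (0 in every list). The counts in this list and those below stand beside these shares of all genes tested: 47.4% had a higher mean in Eomes+ cells, and 3.25% reached an unadjusted p under 0.05 by limma. Groups did not overlap for 3.05% on the higher side and 4.67% on the lower side. Of 12 genes for sterol uptake, efflux and the sterol-sensing LXR receptors, 11 had a higher mean in Eomes+ cells, with a median of 0.31 log2, and 1 reached an unadjusted p under 0.05. That gene was Npc1, which exports cholesterol from lysosomes, at 10.00, 9.95 and 10.19 log2 on Eomes+ arrays, against 9.33, 9.50 and 9.76 log2 on Eomes- arrays. Its groups did not overlap, and the difference was 0.52 log2 (SE 0.20, limma unadjusted p = 0.036, adjusted p = 1.00). Its lysosomal partner Npc2 differed by 0.19 log2, the LXR target Mylip by 0.42 log2 and the cholesterol efflux pump gene Abca1 by 0.92 log2 (SE 0.77), all with overlapping groups. Of 7 other genes of the SREBP machinery 7 had a higher mean in Eomes+ cells, with a median of 0.21 log2 and differences from 0.06 to 0.39 log2, among them the activating protease genes Mbtps1 (0.21 log2) and Mbtps2 (0.21 log2), Erlin1 (0.39 log2) and Rnf139 (0.20 log2), both of which encode membrane proteins of sterol-regulated degradation. Other probe sets above the filter differed the opposite way, by -0.43 and -0.20 log2 for Mbtps1 and by -0.28 log2 for Rnf139, and over the mean of probe sets the list median was 0.063 log2. The macrophage and tumour marker lists, with medians of 0.38 and 0.28 log2, were also higher by mean in Eomes+ cells. With the mean of these markers as a covariate, the medians were 0.17 log2 for the uptake and efflux list and 0.14 log2 for the SREBP machinery list. Without Eomes+ replicate 3 the median of the SREBP machinery list was -0.01 log2, and no array left out turned that of the uptake and efflux list (0.13 to 0.55 log2).

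Of 17 other genes for fatty acid synthesis and desaturation 14 had a higher mean in Eomes+ cells, with a median of 0.24 log2, or 0.03 log2 without Eomes+ replicate 3. It was 0.077 log2 with the marker covariate and 0.16 log2 over the mean of probe sets. Elovl7, an elongase of long saturated chains, was at 6.56, 6.81 and 7.39 log2 on Eomes+ arrays, against 5.16, 5.45 and 6.03 log2 on Eomes- arrays. It was higher in Eomes+ by 1.40, 1.36 and 1.35 log2 at the same replicate number, a mean difference of 1.37 log2 (SE 0.33, limma unadjusted p = 0.00479, adjusted p = 1.00). But Elovl7 lay below the filter level on 2 of the Eomes- arrays, where a level is close to background. The Eomes+ arrays were enough to carry it past the filter, so its entry into the test leaned on the fraction where it was high. All other Elovl7 probe sets lay below the filter level on every array, with differences of 0.09 to 0.36 log2. Lpin1, a phosphatidate phosphatase, differed by 0.97 log2 (SE 0.48) and was higher in Eomes+ at each number on both of its probe sets. Acsl4, an acyl-CoA synthetase for arachidonate, differed by -0.56 log2 (SE 0.27), with other probe sets at -0.33 and 0.067 log2, and Elovl5 by 0.43 log2 (SE 0.25).

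Of 7 other sterol and isoprenoid genes 3 had a higher and 4 a lower mean in Eomes+ cells, with a median of -0.03 log2 that turned to 0.09 log2 without Eomes+ replicate 3. Fntb, the farnesyltransferase beta subunit, was at 7.31, 7.47 and 7.70 log2 on Eomes+ arrays, against 6.30, 6.92 and 6.06 log2 on Eomes- arrays, with no overlap (1.06 log2, SE 0.30, limma unadjusted p = 0.010, adjusted p = 1.00). Pggt1b, the beta subunit of a related prenyltransferase, differed the other way, by -0.33 log2 (SE 0.28), also without overlap, but its other probe sets were at -0.21 and 0.015 log2. Coq2 differed by 0.54 log2 (SE 0.29) and Acat1 by -0.22 log2 (SE 0.19). Fatty acid oxidation genes were divided, with 5 higher and 5 lower by mean and a median of -0.06 log2. Those of smallest p were lower in Eomes+ cells at each replicate number on their brightest probe set: Hadha (-0.51 log2, SE 0.22), Cpt1a (-0.53 log2, SE 0.25), Acadl (-0.46 log2, SE 0.27) and Hadhb (-0.21 log2, SE 0.20). A dimmer Hadhb probe set was higher in Eomes+ at each number (0.27 log2), and another was lower (-0.41 log2). The dimmer Cpt1a probe sets differed by -0.11 and -0.19 log2, with Eomes+ the higher at replicate 1. The 11 proliferation genes had a median of -0.01 log2, with Mcm5 at 0.43 log2 (-0.13 log2 on its other probe set), Aurkb at 0.41 log2, Mki67 at -0.15 log2 and Tyms at -0.15 log2.

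**Figure D4:**
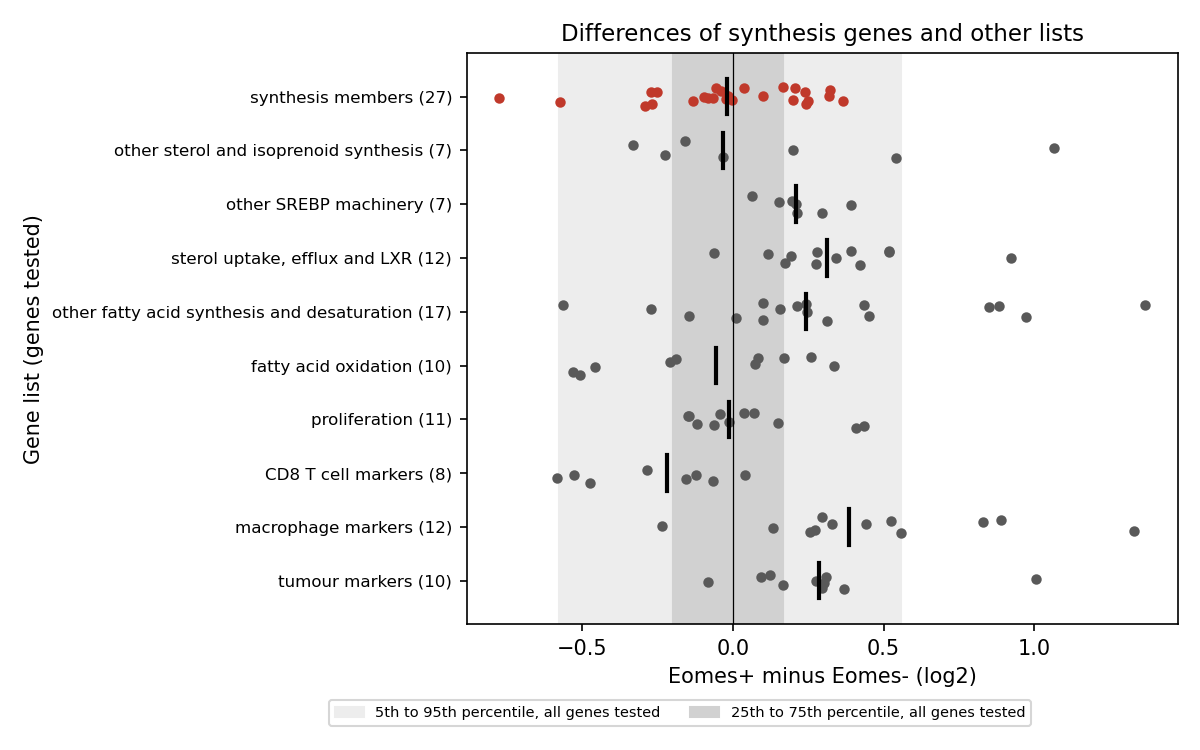
Log2 difference, Eomes+ minus Eomes-, of the 27 synthesis genes (red) and of genes in other lists (grey), 1 point a gene with the list median as a black bar; shaded bands give the percentiles of all 12558 genes. Members centre on 0 with Sc5d outside the wider band, while the SREBP machinery list, the sterol uptake and efflux list, the other fatty acid list and the macrophage and tumour marker lists have medians above the inner band, whose upper edge is 0.17 log2.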

How the data were processed

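Microarray signals of 6 RNA samples were analysed, grouped by sample title as 3 Eomes+ and 3 Eomes-. The authors deposited 1 table of log2 values for 45101 probe sets, between 1.68 and 14.95. The log2 scale was read from the values; the submitters' processing notes name Transcriptome Analysis Console and MAS5 without roles or versions. Array medians were nearly equal (6.35 to 6.42 log2), so a shift common to most genes cannot be seen in these values. Precision is limited by having 3 arrays a fraction.

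Control probe sets (64) were dropped. The platform annotation gave 1 gene for 34945 of the others, several for 932 and none listed for 9160. Probe sets with 1 gene were used, and symbols were updated through a RefSeq table (GRCm38.p6). A gene was represented by its brightest probe set and tested where that exceeded the 40th percentile of the array on 3 or more arrays (12558 of 18193 genes). The members' brightest probe sets ended in _at for 17, _a_at for 5, _s_at for 2 (Mvd and Lss) and _x_at, open to cross-hybridisation, for 3 (Fdft1, Hsd17b7 and Acly). Of 16 members with several probe sets above the filter, 7 had differences in both directions.

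The contrast was fitted by limma 3.58.1 (R 4.3.3) with lmFit and eBayes, the prior variance following intensity. P-values are two-sided, and Benjamini-Hochberg adjustment ran over every tested gene with a threshold of 0.05. The fit was tested on simulated data. The members and lists were chosen with earlier results of these data known. Named were every member, Eomes and up to 4 genes of smallest unadjusted p in each other lipid or proliferation list; the comparison of replicates 3 and 1 was added after values were seen. Alternatives were a replicate block, quantile normalization, median centring, no filter and a stricter one, the mean of probe sets, a pseudocount of 50, no intensity trend, array weights, arrays left out and, chosen after seeing the data, a marker covariate.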

Additional observations from a re-analysis of the deposited data

How the results depend on the processing

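No synthesis gene passed the adjusted threshold under any setting run (limma, adjusted over all genes). At an unadjusted p under 0.05 there was 1 by the reported fit, 3 with the replicate block, 9 with array weights, 2 with the marker covariate, 0 without the intensity trend and 0 to 2 with arrays left out. Over all genes 0 passed, against 17 with the replicate block, 247 with array weights and 7 with the covariate. The unadjusted count of 408 became 1276, 3356 and 1165 under those 3 settings and 118 to 814 with arrays left out. Eomes passed under the same settings, at 3.15 log2 with the block (adjusted p = 0.0160), 2.93 log2 with weights (adjusted p = 0.0266) and 3.40 log2 with the covariate (adjusted p = 0.0297).

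Same-numbered arrays of the 2 fractions correlated in their deviations from the fraction means at 0.595, 0.0989 and 0.628. Differently numbered arrays correlated at -0.619 (Eomes+ replicate 1 with Eomes- replicate 3) to 0.302 (Eomes+ replicate 1 with Eomes- replicate 2). No label says that a number marks a shared experiment, so the reported fit was unpaired and the block was run as an alternative. Each number has 1 array of either fraction, so the replicate block cannot change a mean difference and alters only the p-values. With it, limma's unadjusted p was 0.0109 for Srebf2, 0.0151 for Acly and 0.0409 for Sc5d (adjusted p = 0.315, 0.349 and 0.462).

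Of 270 member values under single alternatives 250 kept their direction and 20 turned. The replicate block, the changes of filter and the fit without the intensity trend left each member's mean difference as reported. Those settings could not turn a direction, so the count of 250 overstates how steady the directions were. The cause of the turns was not tested. Quantile normalization gave Lss 0.031, Nsdhl 0.0100, Srebf1 0.0071 and Scd2 0.025 log2. Nsdhl was 0.0065 log2 after median centring and 0.000187 log2 with the pseudocount. Array weights gave Fdps 0.12, Sqle 0.47, Cyp51 0.0084, Tm7sf2 0.29, Nsdhl 0.47, Hsd17b7 0.0100, Ebp 0.0019 and Scd2 0.16 log2, and medians of 0.20 log2 for the members, 0.077 log2 for the other sterol and isoprenoid list and 0.26 log2 for proliferation, against -0.02, -0.03 and -0.01 log2 as reported. The covariate gave Hmgcs1 -0.031, Mvd -0.039, Msmo1 -0.017, Srebf1 0.083, Elovl6 -0.040 and Scd1 -0.23 log2.

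With arrays left out, 57 of 243 member values turned, in 17 genes. Their ranges in log2 were -0.25 to 0.019 for Acaca, -0.71 to 0.27 for Cyp51, -0.29 to 0.085 for Ebp, -0.24 to 0.70 for Elovl6, -0.62 to 0.49 for Fdps, -0.15 to 0.48 for Hmgcs1, -0.29 to 0.23 for Hsd17b7, -0.30 to 0.27 for Lss and -0.20 to 0.95 for Msmo1. They were -0.27 to 0.45 for Mvd, -0.26 to 0.053 for Mvk, -0.32 to 0.39 for Nsdhl, -0.40 to 1.16 for Scd1, -0.31 to 0.32 for Scd2, -0.39 to 0.39 for Sqle, -0.21 to 0.22 for Srebf1 and -0.59 to 0.020 for Tm7sf2. The members' median ran from -0.24 to 0.25 log2. List medians ran from -0.17 to 0.09 log2 for other sterol and isoprenoid genes, -0.01 to 0.35 for SREBP machinery, 0.03 to 0.38 for other fatty acid genes, 0.13 to 0.55 for uptake and efflux, -0.17 to 0.02 for oxidation and -0.18 to 0.09 for proliferation.

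The other 10 members kept their direction under every setting run, among them Srebf2 (-0.82 to -0.34 log2, lowest adjusted p = 0.0668), Sc5d (-1.14 to -0.36 log2, lowest adjusted p = 0.105), Acly (0.08 to 0.55 log2, lowest adjusted p = 0.0532), Stard4 (-0.37 to -0.20 log2) and Pmvk (0.16 to 0.33 log2). Signal near the filter level limits Elovl7, and the sort purity, the summary method and 3 arrays a fraction limit all values.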
